A study of Mus musculus with 64 samples.

Results

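The striatum of 8 mice labelled Q140 Polq+/- was compared with the striatum of 8 mice labelled Polq+/-, and every gene that could be tested was examined. The 16 libraries were chosen by tissue and genotype label from the 64 libraries of the study, and no measured value entered the choice. All mice were on a C57BL/6 background and 6 months old, and each group held 4 females and 4 males. The Q140 Polq+/- mice carried 1 copy of the Q140 knock-in, an expanded CAG repeat placed in the mouse huntingtin gene Htt, together with a heterozygous Polq allele. The Polq+/- mice carried the heterozygous Polq allele and no knock-in, so both groups shared reduced Polq and differed in Htt. The product of Polq, DNA polymerase theta, rejoins ends of broken DNA. Neither allele was limited by the labels to a cell type, and the libraries came from whole dissected striatum, with 1 library per mouse. The comparison asked what the expanded Htt allele changed in the striatum when Polq was heterozygous.

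Most neurons of the striatum are spiny projection neurons. Those of the direct pathway carry the dopamine receptor Drd1 and the peptides substance P and dynorphin, and those of the indirect pathway carry Drd2, the adenosine receptor Adora2a and enkephalin. Both types hold a dense set of cAMP signalling proteins that relay dopamine to ion channels, glutamate receptors and transcription. In Huntington's disease the spiny neurons are the cells most affected, and in knock-in mice their transcripts change before many cells are lost.

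Total gene counts, in units of 1e6, ran from 32.1 to 40.6 per library in the Polq+/- group and from 31.3 to 40.6 in the Q140 Polq+/- group. Levels are given as CPM, a gene's count per 1e6 counts of its library, with library sizes scaled by edgeR's TMM factors. Those factors lay between 0.961 and 0.986 in the Polq+/- group and between 1.01 and 1.04 in the Q140 Polq+/- group, with no overlap. Polq itself stood at 0.376, 1.72 and 2.42 CPM (lowest, median and highest of 8 mice) in the Polq+/- group and at 0.187, 1.81 and 2.36 CPM in the Q140 Polq+/- group. The groups overlapped, and 4 mice (Polq+/- male 3, and Q140 Polq+/- female 3, female 4 and male 3) lay at or below 0.376 CPM while the other 12 lay at 1.31 CPM or above. The groups are called by their labels throughout. Htt did not pass the test (log2 fold change -0.11, SE 0.0558, edgeR adjusted p = 0.126), with 200 to 231 CPM in the Polq+/- group and 188 to 206 CPM in the Q140 Polq+/- group. Without wild-type male 2, wild-type male 3 and Polq+/- female 3, which stood apart from the other libraries, its difference passed at nearly the same size (-0.11, edgeR adjusted p = 0.000558). Polq+/- female 3 stood apart in choroid plexus genes: the summed level of 11 choroid plexus markers was 1451 CPM in that mouse, at most 46.1 CPM in the other Polq+/- mice and 31.3 to 68.3 CPM in the Q140 Polq+/- mice.

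The groups differed at many genes, mostly by small amounts. Of 18270 genes tested, 5741 (31.4%) passed edgeR's quasi-likelihood test at an adjusted p under 0.05, and these are the genes said below to have risen or fallen. Among them 2943 rose (16.1% of genes tested) and 2798 fell (15.3%). The median change of the genes that rose was 0.22 on the log2 scale and of those that fell -0.24, and 42.5% of the changes were smaller than 0.2. A change of more than 2-fold was seen in 63 genes that rose and 111 that fell. Among all genes tested, 913 (5%) had all 8 Q140 Polq+/- mice above all 8 Polq+/- mice and 1197 (6.55%) had them all below. The median log2 fold change over all genes was 0.005.

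The split between rises and falls depended on the scaling, while the sign of single genes seldom did. On the authors' FPKM values, which carry no TMM factor, limma called 5530 genes higher (30.3%) and 1759 lower (9.63%), so the share of calls that were higher moved from 51.3% to 75.9%. The median log2 fold change over all genes was 0.071 on that scale. Of the genes that fell by edgeR, 1756 were also called lower on FPKM, 1032 were negative there without being called, and 10 turned positive. Of the genes that rose by edgeR, 2939 were called higher on FPKM.

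**Figure D1:**
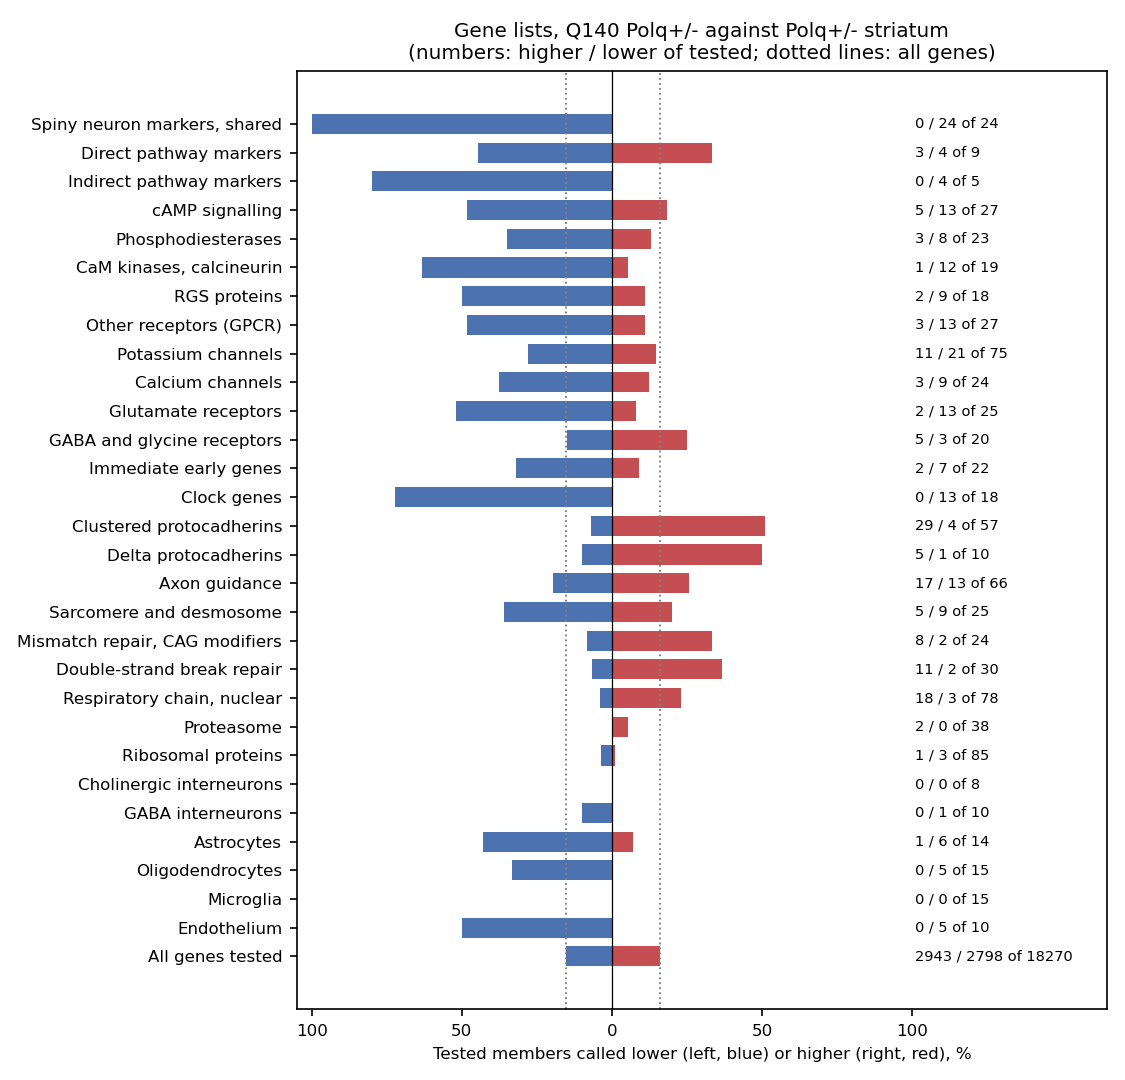
Share of the tested genes of each list called lower (blue, left) or higher (red, right) in Q140 Polq+/- against Polq+/- striatum by edgeR at an adjusted p under 0.05, in percent, with the counts written at the right and the shares over all genes as dotted lines. Shared spiny neuron markers (0 higher and 24 lower of 24) and clock genes (0 and 13 of 18) lie to the left, and clustered protocadherins (29 and 4 of 57) to the right.

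Genes that define spiny neurons fell together. All 24 tested markers common to direct and indirect pathway neurons fell by edgeR, 23 of them also on FPKM, with a median log2 fold change of -0.39 against 0.005 over all genes. In 21 of the 24 the groups did not overlap. Summed over the list, the level was 24816 to 26370 CPM in the Polq+/- mice and 16566 to 17860 CPM in the Q140 Polq+/- mice. In whole tissue, fewer spiny neurons and less of these RNAs in each neuron cannot be told apart. Markers of other cells moved less: 8 cholinergic interneuron markers summed to 247 to 287 and 232 to 265 CPM, while 14 astrocyte markers summed to 5782 to 6526 and 5116 to 5668 CPM with no overlap, and the part of that fall in the values below was not tested.

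Ppp1r1b, which encodes the dopamine-regulated phosphatase inhibitor DARPP-32, stood at 2603, 2778 and 2964 CPM (lowest, median and highest) in the Polq+/- group and at 1750, 1881 and 1909 CPM in the Q140 Polq+/- group. All Q140 Polq+/- mice were below all Polq+/- mice. The log2 fold change was -0.59 (SE 0.039, edgeR adjusted p = 9.15e-15). Arpp21, a cAMP-regulated phosphoprotein, fell from 1922, 1964 and 2099 CPM to 1020, 1068 and 1161 CPM. Its groups were also apart, at a log2 fold change of -0.87 (SE 0.0443, edgeR adjusted p = 1.33e-17). Scn4b, the beta-4 subunit of voltage-gated sodium channels, had the largest fall of the list, from 2296, 2465 and 2678 CPM to 1075, 1198 and 1261 CPM (-1.07, SE 0.0625, edgeR adjusted p = 5.81e-15). Its fold of 2.10 compares with 1.51 for Ppp1r1b. The smallest falls of the list were those of the G protein subunits Gnal (-0.19) and Gng7 (-0.19), which couple dopamine receptors to adenylyl cyclase.

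**Figure D2:**
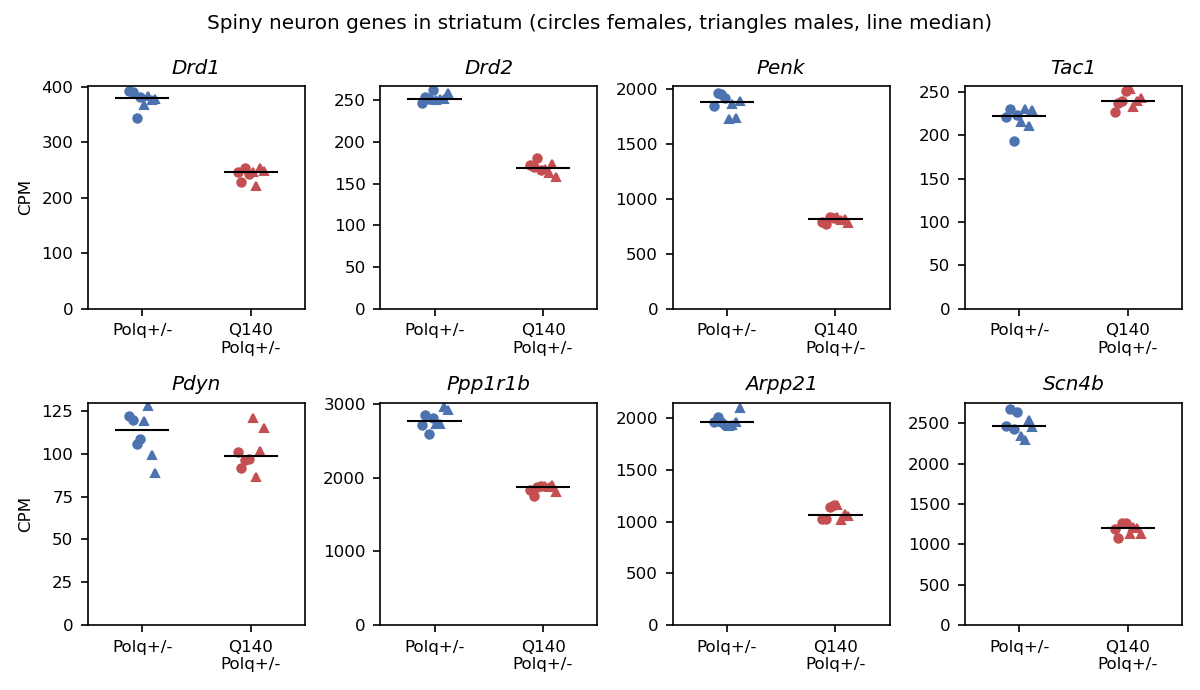
CPM of 8 spiny neuron genes in each mouse (vertical axes, linear from 0), with females as circles, males as triangles and group medians as lines. The groups are apart for Drd1, Drd2, Penk, Ppp1r1b, Arpp21 and Scn4b and overlap for Tac1 and Pdyn.

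The peptides of the direct and indirect pathways did not move alike. Penk, the enkephalin precursor of indirect pathway neurons, stood at 1730, 1881 and 1971 CPM in the Polq+/- group and at 768, 813 and 839 CPM in the Q140 Polq+/- group. The groups were far apart, a fall of 2.31-fold (log2 fold change -1.21, SE 0.045, edgeR adjusted p = 1.26e-21). The direct pathway precursor Tac1, which gives substance P, stood at 194, 222 and 231 CPM and at 227, 240 and 254 CPM. These ranges overlapped, and the small rise (0.13, SE 0.0467, edgeR adjusted p = 0.0247) no longer passed without Polq+/- female 3 (adjusted p = 0.064) or without the 4 mice of very low Polq (adjusted p = 0.152). Pdyn, the dynorphin precursor, was at 89.1, 114 and 128 CPM against 86.4, 98.7 and 121 CPM and did not pass (-0.14, SE 0.088, edgeR adjusted p = 0.241). Among 13 neuropeptide precursors tested, 2 rose and 2 fell, so 30.8% were called, a share near the 31.4% of all genes. The other pair was Nts, for neurotensin (0.89), and Crh, for corticotropin-releasing hormone (-1.33), both of low level.

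The receptors of the pathways fell by similar amounts. Drd1 went from 344, 380 and 393 CPM to 221, 246 and 254 CPM, with every Q140 Polq+/- mouse below every Polq+/- mouse (-0.64, SE 0.0367, edgeR adjusted p = 2.39e-16). Drd2 went from 247, 252 and 262 CPM to 158, 169 and 181 CPM, again with the groups apart (-0.58, SE 0.0358, edgeR adjusted p = 1.46e-15). Of 4 dopamine receptors tested, these 2 fell, and Drd3 did not pass (0.16, edgeR adjusted p = 0.507). The indirect pathway list had 4 of 5 tested members lower, Penk, Adora2a (-0.76), Gpr6 (-0.62) and Drd2, with Sp9, a transcription factor of these neurons, at 0.04 and not called. The direct pathway list had 4 lower and 3 higher of 9. Chrm4, the muscarinic receptor of direct pathway neurons (-0.60), fell with Drd1, while the transcription factors Isl1 (0.22) and Eya1 (0.50) rose.

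Among genes that relay dopamine signals inside the cell more fell than rose. Of 27 adenylyl cyclases, G protein subunits, protein kinase A subunits and phosphatase inhibitors, 13 fell and 5 rose (median -0.09), with 11 and 8 on FPKM and 13 and 3 without the 4 mice of very low Polq. Adcy5, the main adenylyl cyclase of spiny neurons, went from 2019, 2182 and 2252 CPM to 1297, 1367 and 1441 CPM with the groups apart (-0.66, SE 0.0416, edgeR adjusted p = 2.59e-15). The phosphatase inhibitors Arpp19 (-0.75) and Ppp1r1a (-0.62) fell with it. Ptpn5, the striatum-enriched tyrosine phosphatase STEP, fell by 0.55 on the log2 scale.

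Among 23 phosphodiesterases and cGMP enzymes, 8 fell and 3 rose. Pde10a, which degrades cAMP and cGMP in spiny neurons, stood at 2516, 2567 and 2753 CPM and at 1386, 1479 and 1645 CPM. The groups were apart (-0.78, SE 0.0562, edgeR adjusted p = 3.96e-13). Pde1b, the calmodulin-dependent enzyme, fell from 1842, 1899 and 1977 CPM to 1185, 1237 and 1291 CPM (-0.62, SE 0.0326, edgeR adjusted p = 2.09e-17). Pde7b (-0.43), Pde8b (-0.22) and Pde2a (-0.24) also fell. Pde11a rose (0.77), at a median of 0.715 CPM in the Polq+/- group and 1.16 CPM in the Q140 Polq+/- group. On FPKM the list split into 5 lower and 5 higher.

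Calcium signalling had 12 of 19 calmodulin kinases, inhibitors and calcineurin genes lower and 1 higher (median -0.25), with 11 and 4 on FPKM and 12 and 0 without the 4 mice of very low Polq. Calmodulin kinases phosphorylate synaptic and nuclear targets, and calcineurin is the opposing phosphatase. Ppp3ca, its catalytic subunit (-0.43), Camkv (-0.41), Camk2n1 (-0.40), Camkk2 (-0.38) and Camk2b (-0.35) fell. Pcp4, a calmodulin regulator, fell from 500, 517 and 553 CPM to 327, 360 and 368 CPM with the groups apart (-0.56, SE 0.0438, edgeR adjusted p = 7.52e-13).

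Receptors that modulate spiny neurons and the proteins that end their signals were lower more often than higher. Of 27 adenosine, muscarinic, opioid, cannabinoid, serotonin and orphan receptors, 13 fell and 3 rose. Cnr1, the cannabinoid receptor, went from 380.8, 430 and 520 CPM to 232, 259 and 296 CPM (-0.75, SE 0.0882, edgeR adjusted p = 7.96e-08), and Htr1b, a serotonin receptor, fell by the same amount (-0.75). The muscarinic receptor Chrm1 (-0.26) fell as well. Gpr149, an orphan receptor, rose from 5.99, 7.88 and 9.80 CPM to 11.4, 14.0 and 19.3 CPM without overlap (0.85, SE 0.0995, edgeR adjusted p = 3.08e-08). Of 18 regulators of G protein signalling, which speed the shut-off of G proteins, 9 fell and 2 rose. Rgs14 (-1.07), Rgs4 (-0.64), Rgs11 (-0.64) and Rgs9 (-0.62) fell, while Rgs19 (0.80) and the low-level Rgs13 (1.90, 47 and 179 reads over the 8 mice of each group) rose. The Polq+/- reads of Rgs13 were too few to pass the filter on low counts, so its rise is given as a description.

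Ion channels changed in both directions. Of 75 potassium channel genes, 21 fell and 11 rose, with a median of -0.01. Kcnh4, a voltage-gated channel of the striatum, went from 95.4, 107 and 113 CPM to 52.2, 55.8 and 59.2 CPM (-0.92, SE 0.0494, edgeR adjusted p = 1.08e-16). Kcng1, a silent subunit that modifies other channels, went the other way, from 41.6, 44.2 and 47.0 CPM to 74.5, 80.1 and 87.0 CPM (0.86, SE 0.0567, edgeR adjusted p = 5.83e-14). The groups were apart for both. Kcnab1 (-0.55), Kcnh3 (-0.44), Kcnj4 (-0.42) and Kcnq5 (-0.39) fell. On FPKM the list had 14 lower and 13 higher.

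Among 14 sodium channel genes, 3 rose and 4 fell, 2 of the 4 also on FPKM. Scn9a, the channel known from pain neurons, rose from 7.43, 9.50 and 12.1 CPM to 13.7, 16.1 and 24.1 CPM, with no overlap (0.88, SE 0.127, edgeR adjusted p = 2.17e-06). Scn8a, a main sodium channel of neurons, was at 377 CPM in the median of the Polq+/- group and 378 CPM in the Q140 Polq+/- group and did not pass (edgeR adjusted p = 0.938). Of 24 calcium channel genes, 9 fell, among them Cacng3 (-0.53), Cacng4 (-0.48), Cacna2d3 (-0.39) and Cacnb1 (-0.38), and 3 rose, 7 on FPKM.

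Glutamate receptor subunits fell in 13 of 25 tested genes and rose in 2 (10 and 4 on FPKM). Grik2, a kainate receptor subunit, went from 159, 165.3 and 177 CPM to 107, 116 and 125 CPM, with the groups apart (-0.52, SE 0.0343, edgeR adjusted p = 9.15e-15). The metabotropic receptors Grm4 (-0.46) and Grm5 (-0.35) fell. GABA and glycine receptor subunits gave 5 rises and 3 falls of 20, and 8 and 2 on FPKM. Gabrd, the subunit of extrasynaptic GABA receptors, fell from 152, 160 and 171 CPM to 104, 110 and 119 CPM (-0.53, SE 0.0293, edgeR adjusted p = 6.22e-17). The glycine receptor subunit Glra2 rose (0.57). The groups were apart for both subunits.

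Neurotrophin signalling supports spiny neurons, with Bdnf delivered from the cortex. Of 10 neurotrophins and receptors tested, 5 fell, among them Ntrk3 (-0.44), Ntrk2 (-0.22, not called on FPKM) and Sort1 (-0.16). Bdnf was close to the lower limit of these libraries at medians of 0.307 and 0.363 CPM and did not pass (0.39, SE 0.308, edgeR adjusted p = 0.368).

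In a list drawn up for transcription factors of spiny neuron identity, 9 of 26 tested genes fell and 7 rose (9 and 11 on FPKM). The list was made with earlier results of these data known and holds Mafa, a factor best known from insulin-producing cells. Mafa (-2.38), described below, Foxo1 (-0.45), Rxrg (-0.49), Rarb (-0.34), Foxp1 (-0.33), Meis2 (-0.29) and Bcl11b (-0.26) were among those that fell. Ikzf2 (0.37), Isl1 (0.22), Mef2c (0.18), Zfp521 (0.17) and Six3 (0.14) were among those that rose, Ikzf2 not being called without the 4 mice of very low Polq (edgeR adjusted p = 0.0724). Foxp2 (0.08, edgeR adjusted p = 0.167) and Ebf1 (0.09, edgeR adjusted p = 0.149) did not pass.

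Immediate early genes, which neurons switch on with activity, varied widely between mice. Of 22 tested, 7 fell and 2 rose, with a median of -0.53, and without Polq+/- female 3 the count that fell was 9. Egr2 stood at 14.6, 32.3 and 51.8 CPM in the Polq+/- group and at 3.93, 8.83 and 18.5 CPM in the Q140 Polq+/- group. The ranges overlapped at a log2 fold change of -1.72 (SE 0.38, edgeR adjusted p = 0.000765). Homer1, a postsynaptic scaffold gene with an activity-induced form, varied less and went from 318, 344 and 387 CPM to 159, 185 and 209 CPM without overlap (-0.90, SE 0.0564, edgeR adjusted p = 2.25e-14). Egr1 (-0.83), Npas4 (-0.82), Egr4 (-0.81), Egr3 (-0.74) and Jund (-0.18) fell. Npas4 was not called on FPKM, by limma voom (adjusted p = 0.0534) or, by edgeR, without the 4 mice of very low Polq (adjusted p = 0.0994). Fos spanned 6.70 to 59.5 CPM and 4.32 to 54.9 CPM and did not pass (-0.02, SE 0.474, edgeR adjusted p = 0.98). The 2 that rose were Atf3, a stress-induced factor (1.17), and Nr4a2, a nuclear receptor (1.11), both with overlapping groups. Atf3 was not called by limma voom (adjusted p = 0.0663) or with a random block by mouse-name prefix (limma adjusted p = 0.0564).

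The activity-regulated microRNA genes Mir132 and Mir212 lie side by side on chromosome 11 and were lower as well. They were picked out after their values were seen, from 71 microRNA genes tested, of which 10 fell and 1 rose (9 and 3 on FPKM, 6 and 0 without the 4 mice of very low Polq). Those are shares of 14.1% and 1.41%, against 15.3% and 16.1% of all genes tested, so microRNA genes did not fall more often than other genes. The sequences are shown because both carry the same seed (bases 2 to 8, in capitals), the stretch that pairs with target RNAs. The mature sequences (RefSeq, GRCm38.p6, 5′ to 3′) read:
miR-132-3p: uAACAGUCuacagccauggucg
miR-212-3p: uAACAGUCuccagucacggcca
The hairpins lie on the plus strand at chr11:75173682-75173747 for Mir132 and chr11:75173388-75173478 for Mir212, 204 bases apart. Reads over Mir132 gave 0.626, 1.27 and 1.62 CPM in the Polq+/- group and 0.149, 0.617 and 0.705 CPM in the Q140 Polq+/- group. The groups overlapped slightly (-1.22, SE 0.243, edgeR adjusted p = 0.000136). Mir212 gave 0.871, 2.10 and 2.93 CPM and 0.435, 0.854 and 1.72 CPM. It passed with all libraries (-0.99, SE 0.331, edgeR adjusted p = 0.0212) and not without the 4 mice of very low Polq (adjusted p = 0.12). These libraries count long RNA over the hairpin, not the mature microRNA.

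Circadian clock genes were lower as a group. The clock is a loop in which Arntl with Clock or Npas2 binds E-box sequences and drives the Per, Cry and Nr1d1 genes, whose products then repress it. Of 18 genes tested 13 fell and 0 rose (11 and 1 on FPKM), with a median of -0.30. Npas2, the partner of Arntl in forebrain, went from 79.8, 88.0 and 106 CPM to 50.1, 58.3 and 68.7 CPM, with the groups apart (-0.62, SE 0.0543, edgeR adjusted p = 4.93e-11). Dbp, an output factor, went from 217, 252 and 280 CPM to 165.1, 186 and 194 CPM, also apart (-0.47, SE 0.0537, edgeR adjusted p = 1.86e-08). Ciart, a repressor, went from 23.2, 37.8 and 44.1 CPM to 19.5, 23.4 and 26.0 CPM and overlapped (-0.72, SE 0.113, edgeR adjusted p = 1.02e-05). Per2 (-0.62), Per1 (-0.61), Bhlhe40 (-0.45), Hlf (-0.37), Arntl (-0.34), Nr1d1 (-0.32), Cry1 (-0.28), Bhlhe41 (-0.27), Tef (-0.19) and Per3 (-0.16) fell as well, and Cry1 and Per3 were not called on FPKM. Per3 was not called without the 4 mice of very low Polq either (edgeR adjusted p = 0.0762). Clock itself did not pass, at medians of 113 and 114 CPM (edgeR adjusted p = 0.994), and Cry2, Nr1d2, Nfil3 and Rora did not pass. Since Per1 and Per2 swing through the day, the hour of dissection, which no source used here states, matters to these levels.

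The E-box CACGTG, which reads the same on both strands, was searched for in the RefSeq promoter table (GRCm38.p6, 250 bases before to 50 after each start site). It was found in 5 of the 16 clock genes with an entry (31.2%), namely Ciart, Bhlhe41, Per1, Tef and Cry1. It was found in 8.09% of the 27025 genes with an entry and in 11.1% of the 12010 of them that were tested. All 5 fell. Over all genes the motif did not go with falls, since 265 of 1337 tested genes with it rose and 223 fell, against 1889 and 1748 of 10673 without it. The bases before the start sites of Ciart (minus strand, chr3:95882229-95882478) and Per1 (plus strand, chr11:69098699-69098948) are shown to place the motif, in capitals, in a promoter with several copies and in one with a single copy:
Ciart promoter: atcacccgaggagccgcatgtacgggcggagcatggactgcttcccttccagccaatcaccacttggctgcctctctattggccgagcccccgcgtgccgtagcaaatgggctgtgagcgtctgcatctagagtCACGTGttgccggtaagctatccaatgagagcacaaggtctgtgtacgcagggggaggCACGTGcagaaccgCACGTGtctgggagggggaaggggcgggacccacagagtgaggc
Per1 promoter: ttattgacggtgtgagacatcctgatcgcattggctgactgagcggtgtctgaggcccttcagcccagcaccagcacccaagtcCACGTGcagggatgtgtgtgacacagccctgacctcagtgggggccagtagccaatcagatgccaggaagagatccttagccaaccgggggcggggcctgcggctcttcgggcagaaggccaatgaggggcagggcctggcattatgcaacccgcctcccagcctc
In Ciart the 3 motifs begin 116, 58 and 44 bases before the start site, and in Per1 the motif begins 166 bases before it. A match is a run of letters in the window and does not show that a factor bound there.

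The largest falls were in genes of varied function. Among genes averaging at least 1 CPM, and setting aside predicted genes that have no proper name, the largest was that of Gpx6, a glutathione peroxidase. It went from 9.19, 11.6 and 14.7 CPM to 1.1, 1.69 and 2.86 CPM, 6.36-fold lower with the groups apart (-2.67, SE 0.123, edgeR adjusted p = 6.12e-18). Mafa, a transcription factor best known from insulin-producing cells, went from 3.02, 3.39 and 4.66 CPM to 0.318, 0.620 and 1.08 CPM, also apart (-2.38, SE 0.164, edgeR adjusted p = 2.87e-14). Wnt8b, a Wnt ligand, fell by 2.33 on the log2 scale.

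Ddit4l, an inhibitor of mTOR signalling, had the smallest p of all genes tested. It stood at 34.1, 40.8 and 47.3 CPM in the Polq+/- group and at 7.47, 9.12 and 10.2 CPM in the Q140 Polq+/- group. The gap between the groups was wide, and the fall was 4.50-fold (-2.17, SE 0.0709, edgeR adjusted p = 6.27e-22), at -2.19 in females and -2.15 in males. Over the 16 libraries the genes whose log2 CPM followed Ddit4l most closely were Penk (Pearson r = 0.991), Rps6ka4 (0.989), Pde1b (0.988) and Adora2a (0.988). These values describe profiles that all hold the same difference between the groups. Of 23 mTOR pathway genes tested, Ddit4l included, 6 fell and 3 rose (4 and 8 on FPKM, 5 and 1 without the 4 mice of very low Polq), Tsc1 among those that fell (-0.15, not called on FPKM).

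Others of the 20 largest falls were the copine Cpne9 (-1.80), the membrane transporter Slc4a11 (-1.78), the endopeptidase Phex (-1.73), the serine protease Tmprss6 (-1.81), the lipid-binding protein Sec14l3 (-1.82), the proton pump subunit Atp6v1c2 (-1.65), the interleukin receptor chain Il2rb (-1.65), Dgat2l6 (-1.77) and Theg (-1.68). In each of these the groups were apart. Abhd11os, a non-coding RNA, went from 10.9, 12.7 and 15.3 CPM to 3.23, 4.07 and 5.36 CPM (-1.59, SE 0.114, edgeR adjusted p = 4.82e-13). It overlaps Abhd11 on the other strand, and Abhd11 did not pass (0.09, edgeR adjusted p = 0.24). Atp6v1c2 likewise overlaps Pdia6 on the other strand, and no source used here states whether counting was stranded.

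A set of 4 of the largest falls rested on 1 mouse. Prlr, the prolactin receptor, Tmem72, the clotting factor F5 and the collagen Col8a1 stood at 18.3, 18.6, 28.3 and 12.2 CPM in Polq+/- female 3, and at 0.907, 0.655, 1.72 and 0.689 CPM or less in the other Polq+/- mice. With all libraries their log2 fold changes were -2.13, -2.13, -1.68 and -1.67. Without that mouse they were -0.33 for Prlr, 0.10 for Tmem72, -0.01 for F5 and 0.14 for Col8a1, with edgeR adjusted p of 0.391, 0.842, 0.987 and 0.663. The 4 genes were not called without the 4 mice of very low Polq either (edgeR adjusted p = 0.0637, 0.069, 0.071 and 0.117).

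**Figure D3:**
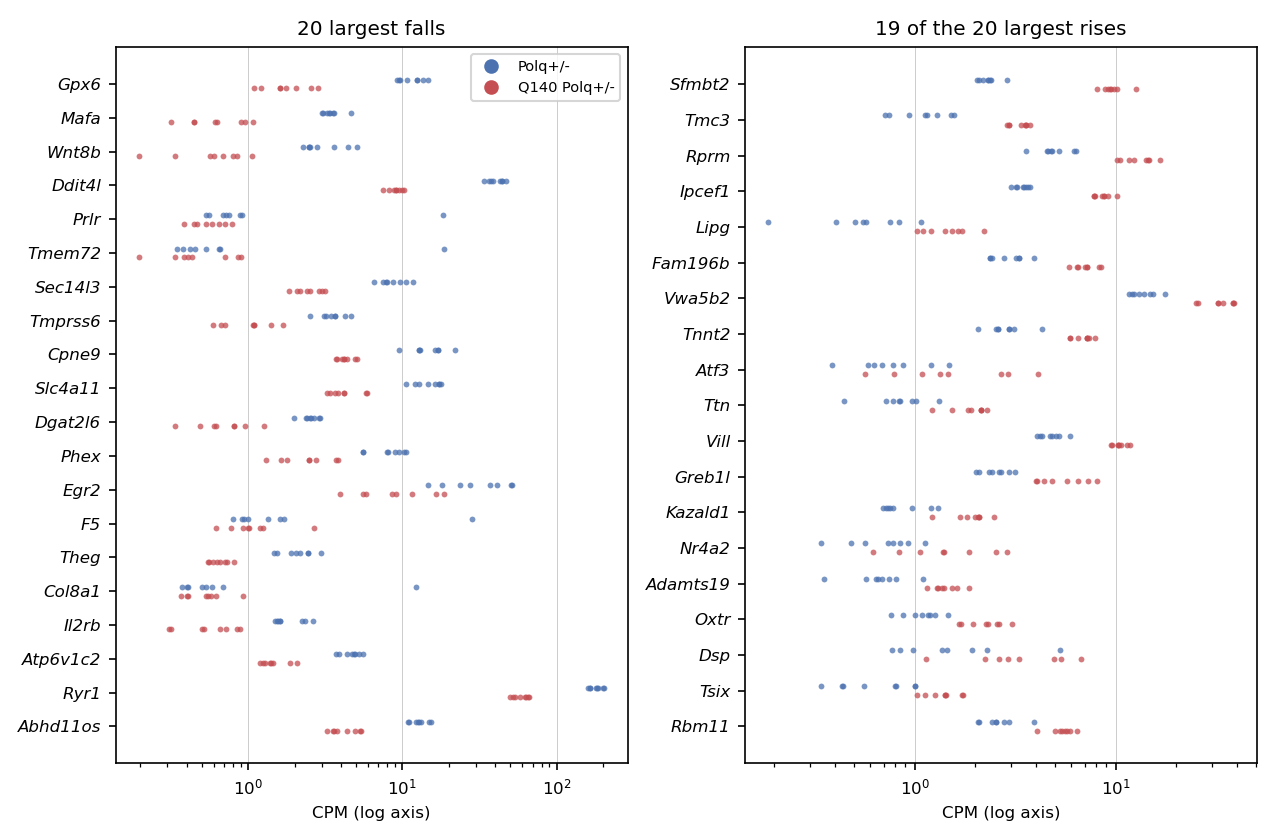
CPM of the 20 genes with the largest falls (left) and of 19 of the 20 with the largest rises (right) in each mouse (horizontal axis, log scale), Polq+/- in blue and Q140 Polq+/- in red. The groups are apart for Gpx6, Ddit4l and Sfmbt2, while for Prlr, Tmem72, F5 and Col8a1 a single Polq+/- mouse lies far to the right of the rest.

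Among the named rises of genes that averaged at least 1 CPM, that of Sfmbt2, a Polycomb group protein, was the largest. It went from 2.05, 2.32 and 2.89 CPM to 8.05, 9.45 and 12.6 CPM with the groups far apart (2.06, SE 0.107, edgeR adjusted p = 1.95e-17). Rprm, a cell cycle inhibitor induced by p53, went from 3.57, 4.79 and 6.32 CPM to 10.2, 13.2 and 16.7 CPM, also apart (1.38, SE 0.111, edgeR adjusted p = 6.69e-12). Tmc3, a channel-like membrane protein, rose from 0.708, 1.14 and 1.57 CPM to 2.89, 3.48 and 3.73 CPM (1.55, SE 0.157, edgeR adjusted p = 4.64e-10). Oxtr, the oxytocin receptor, rose from 0.762, 1.13 and 1.47 CPM to 1.66, 2.30 and 3.04 CPM without overlap (1.04, SE 0.199, edgeR adjusted p = 8.3e-05). Vill, a villin-like protein (1.13), the splicing factor Rbm11 (1.03), the protease Adamts19 (1.06) and Greb1l (1.12) also rose with the groups apart. Lipg, an endothelial lipase (1.29), and Kazald1 (1.11) rose with overlap. Ipcef1 (1.33), Fam196b (1.27) and Vwa5b2 (1.26) rose, and each overlaps another gene on the opposite strand, Oprm1, Dock2 and Alg3.

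Sarcomere and desmosome genes moved both ways, with 5 higher and 9 lower of 25. Tnnt2, cardiac troponin T, went from 2.06, 2.77 and 4.29 CPM to 5.90, 7.2 and 7.91 CPM (1.26, SE 0.111, edgeR adjusted p = 1.31e-11), and the groups were apart. Ldb3, a Z-disc protein (0.48), the desmosome protein Dsp (1.04) and Ttn, titin, rose (1.15), Ttn only on counts and not on FPKM (0.12, limma adjusted p = 0.0758). Ryr1, the calcium release channel of skeletal muscle, fell from 160, 181 and 204 CPM to 49.9, 60.3 and 66.1 CPM (-1.61, SE 0.0937, edgeR adjusted p = 4.3e-14). Its groups were far apart. Ryr3 fell less (-0.34), and Ryr2 did not pass (-0.01, edgeR adjusted p = 0.943). Actn2 (-0.33) and Nexn (-0.31), which bind actin and are also spiny neuron markers, fell.

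Developmental transcription factors are kept off in adult neurons by Polycomb complexes, and most were too low to test, with 27 of 108 passing the filter on low counts. A gene that passed through its level in 1 group had to differ, so no count is given as a result. Wt1, a factor of kidney and gonad development, had 12 reads over the 8 Polq+/- mice and 535 over the 8 Q140 Polq+/- mice. It stood at 0, 0.054 and 0.0836 CPM and at 0.864, 1.92 and 2.8 CPM, and no mice overlapped. Onecut1 had 14 and 159 reads, and Hoxa7 stood at medians of 0.125 and 0.303 CPM. These levels are given as a description. Sox11 rose by 0.79 and Tbx6 fell (-0.40, not called on FPKM).

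Polycomb group genes gave 6 rises and 7 falls of 33, and 16 and 2 on FPKM. Cbx8, a subunit that binds methylated histone H3, rose from 7.83, 10.3 and 13 CPM to 13.7, 17.9 and 19.8 CPM with the groups apart (0.74, SE 0.0822, edgeR adjusted p = 7.1e-09). Ezh2, the methyltransferase of the complex, did not pass (-0.13, edgeR adjusted p = 0.19). Of 56 histone modifying enzymes, 13 fell and 9 rose, and 8 and 19 on FPKM. By edgeR 39.4% of the Polycomb list and 39.3% of the enzymes were called, against 31.4% of all genes. Over all genes 16.1% rose and 15.3% fell, and on FPKM 30.3% were higher and 9.63% lower. The demethylases Kdm4b (-0.61) and Kdm3a (-0.48) fell and the deacetylase Hdac1 rose (0.51), each with the groups apart.

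Protocadherins, adhesion proteins that give neurons a surface identity, rose more often than they fell. Of 57 clustered protocadherins tested, 29 rose and 4 fell (34 and 2 on FPKM), with a median of 0.29. Pcdhb3 went from 2.71, 3.89 and 4.46 CPM to 5.74, 7.28 and 8.33 CPM without overlap (0.95, SE 0.0788, edgeR adjusted p = 3.67e-12). These genes lie as similar copies in clusters on chromosome 18, and some share exons, so a read may not be assignable to 1 member, and single values are uncertain. Outside the clusters 5 of 10 delta protocadherins rose and 1 fell (6 and 0 on FPKM). Pcdh20 went from 7.64, 8.39 and 9.29 CPM to 15.0, 16.8 and 21.3 CPM (1.03, SE 0.0734, edgeR adjusted p = 7.69e-14), and Pcdh19 rose by 0.99, both without overlap.

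Other surface molecules were split between rises and falls. Of 66 axon guidance ligands and receptors, 17 rose and 13 fell (26 and 9 on FPKM, 16 and 7 without the 4 mice of very low Polq), with Ephb6 (0.38), Sema6c (0.37) and Plxna3 (0.35) higher and Sema7a (-0.41) and Efnb3 (-0.29) lower. Slitrk and Lrrtm synaptic organisers gave 6 rises and 5 falls of 18 (8 and 3 on FPKM), Slitrk6 rising by 0.88 and Lrrtm1 falling (-0.45). Of 31 Wnt ligands and receptors, 7 fell and 2 rose (4 and 5 on FPKM, 5 and 1 without the 4 mice of very low Polq), so 29% were called, a share near the 31.4% of all genes. Wnt4 went from 2.99, 3.58 and 4.01 CPM to 0.596, 1.31 and 1.81 CPM, and the Wnt inhibitor Dkk2 from 1.45, 1.92 and 2.34 CPM to 0.343, 0.708 and 0.925 CPM, both with the groups apart (-1.52 and -1.47). Collagens, laminins and Adamts proteases gave 10 rises and 7 falls of 70 (12 and 4 on FPKM, 8 and 4 without the 4 mice of very low Polq), with Col11a1 (0.85) among the rises. In all 24.3% of that list were called, below the share of all genes.

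Genes of the X chromosome rose more often than those of any autosome, a pattern picked out after its values were seen and given without a test. Of 673 X-linked genes tested, 26.2% rose and 9.96% fell, against 14.1% to 20.2% and 13.7% to 18.1% on single autosomes. The median log2 fold change was 0.037 on X, at 0.040 in females and 0.043 in males, and -0.006 to 0.023 on the autosomes. On FPKM 267 X-linked genes were higher and 32 lower, against 5243 and 1716 of 17499 autosomal genes. In the mice with both Polq copies, which share no library with these groups, 187 X-linked genes rose and 60 fell in Q140 against wild type. There 2898 autosomal genes rose and 2702 fell. With genes divided by level into 5 equal bins, 8.75% of X-linked and 6.18% of autosomal genes rose in the lowest bin. The next bin had 16.8% and 15.3%, and bin 4 had 41.0% and 20.5%. In cortex the median was 0.022 on X.

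Syp, which encodes the synaptic vesicle protein synaptophysin, rose from 428, 455 and 465.5 CPM to 639, 677 and 710 CPM with the groups apart (0.58, SE 0.0301, edgeR adjusted p = 1.95e-17). Htr2c, a serotonin receptor, rose from 56.9, 62.3 and 71.7 CPM to 99.1, 105 and 115 CPM (0.73, SE 0.0486, edgeR adjusted p = 2.57e-14). A set of Armcx, Gprasp, Arxes, Bex and Tceal genes on X was gathered by gene name after values of X-linked genes were seen. It had 14 of 22 members higher and 1 lower, with a median of 0.21. Those are shares of 63.6% and 4.55%, against 26.2% and 9.96% of all X-linked genes tested, given as a description. Within it Gprasp2, which sorts receptors after uptake, went from 92.6, 100 and 111 CPM to 142, 147 and 164 CPM without overlap (0.55, SE 0.033, edgeR adjusted p = 5.53e-16). Gprasp1 (0.26) and Armcx4 (0.35) rose as well. Tsix, the antisense RNA of the X-inactivation gene Xist, rose (1.03), and its reads cannot be told from those of Xist without the strand setting.

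**Figure D4:**
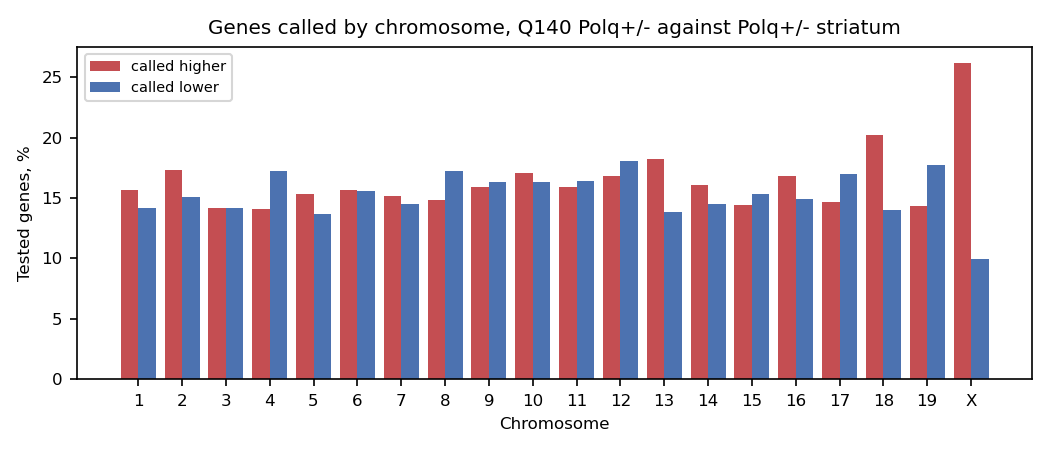
Share of tested genes on each chromosome (horizontal axis) called higher (red) or lower (blue) by edgeR at an adjusted p under 0.05, in percent from 0. On X 26.2% were higher and 9.96% lower, while no autosome had more than 20.2% higher or less than 13.7% lower.

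Among DNA repair genes more rose than fell, by small amounts, and most did not pass; over all genes 16.1% rose. Of 24 mismatch repair genes and modifiers of CAG repeat expansion, 8 rose and 2 fell (14 and 2 on FPKM, 5 and 2 without the 4 mice of very low Polq). Msh3, the mismatch recognition protein specific to loops, stood at medians of 26.3 and 27.6 CPM and did not pass (0.07, edgeR adjusted p = 0.261). Mlh3 (0.15) and Fan1 (0.13) rose, Fan1 not being called without the 4 mice of very low Polq (edgeR adjusted p = 0.116). Rfc5, a clamp loader subunit, fell from 10.5, 11.8 and 13.1 CPM to 7.70, 8.15 and 9.14 CPM (-0.52, SE 0.0573, edgeR adjusted p = 3.69e-09), apart and overlapping Wsb2 on the other strand.

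Of 30 genes for repair of double-strand breaks, the lesion that Polq joins, 11 rose and 2 fell. Prkdc, the DNA-dependent protein kinase of end joining, went from 54.8, 59.8 and 61.8 CPM to 72.2, 73.9 and 80.2 CPM with the groups apart (0.36, SE 0.0449, edgeR adjusted p = 4.62e-08). Xrcc5, a subunit of Ku (0.31), and Rbbp8, which trims DNA ends (0.50), rose, and the histone gene H2afx fell (-0.28). Of 21 p53 targets 5 rose and 3 fell, 9 and 1 on FPKM. Beside Rprm, described above, these included Eda2r (0.70) and Mdm4 (0.14) higher, and Gadd45a (-0.67), Cdkn1a (-0.38, not called without the 4 mice of very low Polq, edgeR adjusted p = 0.2) and Zmat3 (-0.14, not called on FPKM) lower.

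Housekeeping pathways moved little, and their counts depended on the scaling. Of 78 nuclear genes of the respiratory chain 18 rose and 3 fell, with 42 and 1 on FPKM and 10 and 1 without the 4 mice of very low Polq. Cyc1 (0.21) and Atp5g1 (0.27) rose and Ndufs3 fell (-0.22), the groups being apart for each. Of 38 proteasome subunits 2 rose and 0 fell (11 and 0 on FPKM, 1 and 0 without the 4 mice of very low Polq), and of 85 ribosomal proteins 1 rose and 3 fell (6 and 2 on FPKM, 0 and 2 without the 4 mice of very low Polq). Heat shock proteins and co-chaperones gave 3 rises and 6 falls of 29 (7 and 2 on FPKM), autophagy genes 4 and 6 of 28 (14 and 2, and 4 and 3 without the 4 mice of very low Polq), cholesterol synthesis 3 and 5 of 24 (12 and 3), and antioxidant genes 6 and 5 of 29 (12 and 3). The shares called by edgeR were, in that order, 31.0%, 35.7%, 33.3% and 37.9%, against 31.4% of all genes. For these lists the balance of rises and falls turned with the scaling, apart from the antioxidant genes, which had more rises on both. Of 21 interferon response and DNA sensing genes 2 rose, among them Mb21d1, the DNA sensor cGAS (0.58), and Oas1a fell (-0.74). Together 14.3% of that list were called, against 31.4% of all genes. Oas1a was not called without the 4 mice of very low Polq (-0.57, edgeR adjusted p = 0.159).

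Markers of cells other than spiny neurons were examined for the same mice. Of 8 cholinergic interneuron markers 0 were called by edgeR or on FPKM, with changes of -0.10 to -0.03. Of 15 microglial markers 0 were called by edgeR or on FPKM, and 2 were lower without Polq+/- female 3. Of 10 GABA interneuron markers 1 fell. Mature oligodendrocyte markers fell in 5 of 15, with Mobp going from 997, 1158 and 1401 CPM to 769, 903 and 1032 CPM (-0.38, SE 0.073, edgeR adjusted p = 0.000112), with overlap. Summed, the oligodendrocyte markers were at 7001 to 7597 CPM and at 5673 to 7825 CPM, so the Q140 Polq+/- mice spread more widely on both sides. In the oligodendrocyte precursor list Enpp6, a mark of newly forming oligodendrocytes, rose (0.45).

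Astrocyte markers fell in 6 of 14 and rose in 1, on FPKM fell in 2 and rose in 1, and without the 4 mice of very low Polq fell in 3 and rose in 0. Slc1a2, the main glutamate transporter, went from 2592, 2707 and 3069 CPM to 2313, 2398 and 2533 CPM, just apart (-0.20, SE 0.0444, edgeR adjusted p = 0.000379). Endothelial markers fell in 5 of 10, in 0 on FPKM, in 2 without Polq+/- female 3 and in 2 without the 4 mice of very low Polq. Of 9 mural cell markers 3 fell, with 1 lower on FPKM and 1 without the 4 mice of very low Polq. The largest of the 3 was Tagln (-0.96), which overlaps Pcsk7 on the other strand. Of 8 markers of cortical excitatory neurons, 3 rose, among them Cux2 (0.41) and Lamp5 (0.17). Their sum over 10 markers was 141 to 160 CPM and 160 to 190 CPM, so the groups met at 160 CPM, and its part in the rises above was not tested.

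The cortex of the same mice changed far less. Of 18116 genes tested there, 61 (0.337%) passed, 22 higher and 39 lower. Of the 60 also tested in striatum, 38 were called there with the same sign (63.3% of them, and 0.683% of the 5563 striatal calls tested in cortex), and 1, Pak1, was called with the opposite sign. The difference between the striatal and cortical effects passed for 3688 of 19091 genes (19.3%), 1719 with the more positive effect in striatum and 1969 with the more negative. It passed for 21 of the 24 shared spiny markers and for 12 of the 18 clock genes. Of the 174 genes changed more than 2-fold in striatum, it passed for 109, and 3 were called in cortex.

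Rps6ka4, Ankrd35, Pde1b, Fbxl16 and Syp were among the 6 genes with the smallest p for this difference. Rps6ka4, a kinase of CREB and histone H3, fell in striatum from 73.1, 82.0 and 85.8 CPM to 44.9, 48.8 and 50.5 CPM, all apart. Its striatal effect was -0.75 and its cortical effect 0.09. Ankrd35 fell in striatum from 18, 19 and 20.1 CPM to 6.25, 7.42 and 8.38 CPM and changed by 0.03 in cortex. Syp rose by 0.58 in striatum and stood at 0.00 in cortex.

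Several genes did move in both tissues. Gm2420, a predicted non-coding gene on chromosome 5 (plus strand, 32720330 to 32736194 on GRCm38), the chromosome that carries Htt, had 11 reads over the 8 Polq+/- mice and 278 over the 8 Q140 Polq+/- mice in striatum. Its fitted log2 fold change was 4.51 in striatum and 4.04 in cortex, and with so few reads in 1 group these sizes depend on the fit. The Polq+/- group could not have carried Gm2420 past the filter on low counts. It therefore had to differ, and its values are given as a description. Abhd1, also on chromosome 5, rose in striatum (0.70) and in cortex (1.13, edgeR adjusted p = 1.07e-06), as did Mrpl33 (0.16 and 0.33). Cgref1 (0.39) and Zfp513 (0.14), of the same chromosome, were called in cortex and not in striatum. Within 10 Mb of Htt 34 of 194 genes tested rose and 26 fell in striatum, shares of 17.5% and 13.4% (58 and 17 genes on FPKM). Over all genes the shares were 16.1% and 15.3%. Tmc3 rose in cortex too (1.1, edgeR adjusted p = 0.0184). Camk2n1 fell in striatum (-0.40) and in cortex (-0.23), with Camkk2 (-0.38 and -0.14) and Sema7a (-0.41 and -0.22).

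**Figure D5:**
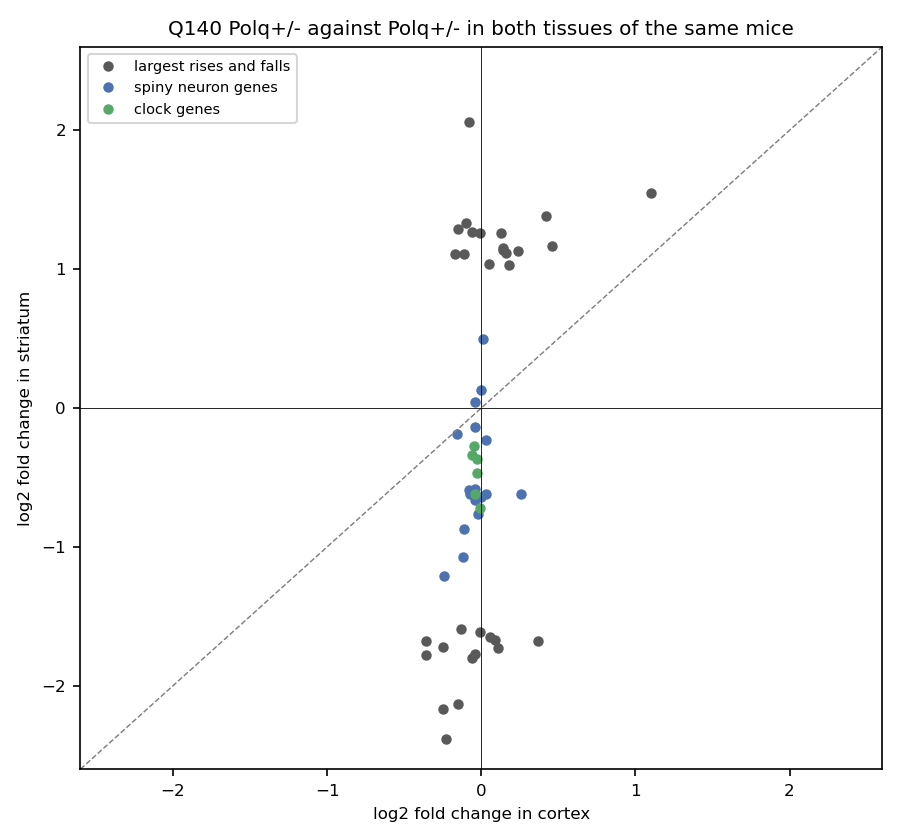
Log2 fold change of Q140 Polq+/- against Polq+/- in striatum (vertical axis) and cortex (horizontal axis), with the line of equal change dashed. Drawn are named spiny neuron genes, clock genes and largest changes that were tested in both tissues. Changes beyond the ends of the axes are not drawn, and Gpx6 (-2.67 in striatum) is not shown. Spiny neuron genes (blue), clock genes (green) and most of the largest changes (grey) lie along the vertical axis, and Tmc3 (1.55 and 1.1) is the point nearest the line at upper right.

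Females and males were also tested apart. In females alone 1714 genes rose and 1816 fell, and in males alone 1629 and 1780. A difference between the sexes passed for 0 genes by edgeR (0%), with 559 at an unadjusted p under 0.05, and for 0 genes by DESeq2 and by limma voom. The median SE of that difference was 0.121 on the log2 scale, so only large differences could have been seen.

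The effect of the knock-in was also set against that in mice with both Polq copies. A difference passed for 0 genes by edgeR (0%), with 893 at an unadjusted p under 0.05, and for 0 genes by DESeq2 and by limma voom. Its median SE was 0.0859. Penk fell by 1.21 on the log2 scale in both settings, Ddit4l by 2.17 and 2.16 and Drd1 by 0.64 and 0.60, each with Polq heterozygous first. Sfmbt2 rose by 2.06 and 2.01.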

How the data were processed

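RNA-seq libraries were made from total RNA of striatum and cortex, with 1 library per mouse and tissue. Reads were aligned to GRCm38/mm10 with STAR 2.7.5c and counted with HTSeq 0.12.3, and SAMtools 1.10 was used, per the submitters' processing notes, and no source used here states the strand setting. The authors' deposited tables hold raw counts per gene and FPKM values. The 32 striatal libraries were fitted together with edgeR 4.0.16 (TMM, filterByExpr, genotype groups with sex as a covariate, robust quasi-likelihood test), Benjamini-Hochberg adjustment was made over all 18270 genes, and a gene was called at an adjusted p under 0.05. The authors' FPKM values were tested with limma 3.58.1 on log2(FPKM + 0.1), a scale that understates changes of low genes. DESeq2 1.42.0, limma voom, other filters, batch terms, a replicate block and omitted libraries were tried as alternatives. Plate column, recorded for each library, was among the batch terms and entered as a number, which gave 2770 genes higher and 2706 lower. Several Q140 Polq+/- striatal libraries lay in a column that held no Polq+/- striatal library. An effect of that column alone cannot be told apart from genotype by this term. Genes named were the 20 largest rises and 20 largest falls, up to 6 members of each list by p with members of a defining role, and others chosen after their values were seen. Added in that way were Mir132, Mir212, Wt1, Onecut1, Hoxa7, Tsix, Syp, Htr2c, Pcdh19, Gprasp1, Gprasp2 and Armcx4. Some of these also met another rule, as Tsix did among the 20 largest rises. The members and lists were chosen with earlier results of these data known, and the 4 mice of very low Polq were picked from measured Polq by an earlier analysis. Replicates are separate mice. On simulated counts the test recovered 43, 37, 35 and 44 of 50 genes changed by -1, -0.5, 0.5 and 1 on the log2 scale, with 11 false calls of 18070. There few genes were changed, equally up and down, with the spread taken from the fit. It therefore does not measure false calls where many genes change or where the scaling matters. Some genes are not reported here.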

Additional observations from a re-analysis of the deposited data

Results flagged for a closer look

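In 70 genes, 140 groups of 8 mice were listed for a search for a mouse far from the rest (Dixon's criterion on the gap to the next mouse), and 13 stood out. Tsix was among the genes listed but was not searched. For genes chosen beforehand chance gives about 1 in 20. Many of these genes were named for their changes in these same mice, so 13 cannot be set against that rate. Polq+/- female 3 accounted for 5 of them: Prlr at 18.3 CPM (next 0.907), Tmem72 at 18.6 (next 0.655), F5 at 28.3 (next 1.72), Col8a1 at 12.2 (next 0.689) and Dsp at 5.31 (next 2.3). That mouse also had the highest choroid plexus markers, whose part in these values was not tested. In the Q140 Polq+/- group, female 3 stood out for F5 at 2.66 CPM (next 1.25) and Col8a1 at 0.925 (next 0.617), and female 2 for Sfmbt2 at 12.6 (next 10.2) and Gprasp2 at 164 (next 149). Male 2 of that group was lowest for Armcx4 at 60.9 CPM (next 64.6). In the Polq+/- group, male 2 stood out for Sfmbt2 at 2.89 CPM (next 2.4), female 4 for Mafa at 4.66 (next 3.63) and male 3 for Gm17091 at 2.54 (next 2.15).

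The effect of Q140 differed between striatum and cortex for 3688 genes by an interaction test in edgeR. The striatal minus cortical log2 fold change was -0.84 for Rps6ka4, -1.39 for Ankrd35, -0.66 for Pde1b, -0.67 for Fbxl16 and 0.57 for Syp.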

How the results depend on the processing

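The main counts were 2943 genes higher and 2798 lower. They moved by over 1.5 times on FPKM alone, to 5530 and 1759 with a pseudocount of 0.1 and 5545 and 1760 with 1. Leaving out each mouse in turn gave 2758 to 3025 higher and 2539 to 2729 lower. Without the 4 mice of very low Polq there were 2412 and 2203. In cortex the 61 calls became 167 with DESeq2 and 34 with the 16 libraries alone. Differences by sex and by Polq stayed at 0 genes in every setting run. With a replicate block there were 2936 higher and 2802 lower; same-numbered mice did not deviate together (correlations of -0.32 to 0.38, over 0.1 in 3 of 8 pairs, and 4 of 16 libraries closest to their own number), so the numbers do not pair the mice, and 5 named genes lost their call under the block.

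Of 286 named genes called, 245 kept their call and direction in every setting and 22 lost the call when some 1 mouse was left out. Without Polq+/- female 3 the log2 fold change turned to 0.099 for Tmem72, 0.143 for Col8a1 and 0.49 for Kl (edgeR adjusted p = 0.00586 for Kl), and without that mouse and 2 wild-type mice to 0.101, 0.134 and 0.492. Tmem72 and Col8a1 were called with all libraries, and Kl was not. With each mouse left out in turn, the Tmem72 log2 fold change ran from -2.345 to 0.099, the Col8a1 log2 fold change from -1.825 to 0.143 and the Kl log2 fold change from -1.394 to 0.49. Genes near the filter's floor have few reads, and a median SE of 0.0607 limits what small changes can be seen.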

Other observations

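Calls were spread unevenly over the range of expression, a pattern seen after the values were known and given without a test. When genes were divided by level into 5 equal bins, 588 rose and 1178 fell in the highest bin, while 790 rose and 408 fell in the middle bin. On FPKM the highest bin had 1354 higher and 764 lower, so the direction of this split turned with the scaling. Of 1509 long non-coding RNAs tested 211 rose and 155 fell (309 and 126 on FPKM), and of 14741 protein-coding genes 2626 rose and 2504 fell (4961 and 1537 on FPKM). The predicted RNA Gm17091 fell from 1.88, 1.96 and 2.54 CPM to 0.328, 0.486 and 0.736 CPM, and Ptprv fell by 1.19 on the log2 scale, each with the groups apart.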
